A study of Mus musculus with 36 samples.

Results

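These data describe mouse glioma cells that were cultured together with macrophages and collected 6 h after myelin, set against the same co-cultured cells at 0 h. The members are the 6 libraries, of 36 in the series, whose titles give a co-culture, tumour cells and either time: 3 at 6 h and 3 at 0 h, each with a library number from 001 to 003. The assay was RNA sequencing of sorted cells, given as counts per gene. All groups carry the same line, PDG-Ink4a Recurrent, in which platelet-derived growth factor B had been expressed in Nestin-positive progenitors on an Ink4a/Arf-null background. The cells at 0 h carry the treatment label Control. Tumour cells labelled as mono-cultured had the same times and serve for comparison, with 3 libraries at 6 h and 3 at 0 h, although some of these libraries also held macrophage RNA. Co-cultured tumour cells at 24 h gave 3 more. The labels give no myelin dose, no strain, sex or age, and do not say whether the numbers mark separate cultures. All libraries come from 1 line, so p-values measure the spread between these libraries only. None of the libraries analysed here is labelled as 6 h of culture without myelin, so myelin and 6 h of further culture cannot be told apart.

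Myelin, the lipid-rich sheath of axons, is rich in cholesterol, and its debris is taken up by macrophages in damaged brain and in glioma. Cells that receive sterol usually shut down SREBP targets, the genes of cholesterol synthesis among them, and switch on LXR targets such as the exporter Abca1. Growth factors and stress act on cells through a fast layer of immediate early transcription factors and of MAP kinase phosphatases that end the signal.

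The 6 h libraries held 15319104, 13687029 and 11609831 counts in genes, and the 0 h libraries 11614308, 12322984 and 12110126. Libraries with number 001 stood apart: on the main axis of variation among the 18 tumour cell libraries, which took 62.0% of the variance, they lay between -64.3 and -36.3 and all others between 5.14 and 49.4. The gene entry CT010467.1 took 3.23% of counts in the 0 h co-culture library 001 and 0.267% in the 6 h library 001. In co-culture libraries 002 and 003 at both times it took 0.279 to 0.473%. In mono-culture it took 13.4% (0 h, 001), 6.69% (6 h, 001) and 2.20% (6 h, 003), and 0.399 to 0.641% in the others at these times. Its part in the results was not tested. Same-numbered libraries at 6 h and 0 h deviated together, with correlations of 0.784, 0.575 and 0.482 for numbers 001, 002 and 003. All 3 exceed 0.1, the limit set for keeping the number as a block, and the block was kept in every comparison. Libraries 002 and 003 correlated as highly across numbers, at 0.543 (6 h 002 with 0 h 003) and 0.614 (6 h 003 with 0 h 002). The correlations thus set 001 apart from the other two and do not pair 002 and 003 one by one. The number of calls depends on the block, as given below. Macrophage RNA also followed the number. The summed level of 20 macrophage markers, as a percentage of that in mono-cultured macrophages at 0 h, was 0.0732, 5.10 and 5.35 at 6 h and 0.0939, 7.79 and 5.08 at 0 h, in the order of the numbers. The groups overlapped; the mean was 3.51 ± 2.98% at 6 h and 4.32 ± 3.90% at 0 h (SD, n = 3 each; two-sided exact permutation p = 0.9, where 0.1 is the smallest that 3 against 3 allows). Mono-cultured tumour cells held such RNA as well, at 0.0642, 6.07 and 2.22% at 6 h and 0.0577, 1.29 and 1.70% at 0 h. The mono-culture 6 h library 002 exceeded its co-culture counterpart, so these libraries do not set macrophages present against macrophages absent. Impurity of the sort and exchanged labels were not tested. Fewer macrophages among the sorted cells and less RNA in each cannot be told apart. Among 10 glioma markers, Vim, Cd44, Cspg4, Pdgfra, Nes and Sox2 were detected, whereas Olig1 and Ptprz1 were at 0 in the 6 libraries and Bcan and Sox10 stayed under 1 CPM (counts per 1000000). Vim, Cd44 and Nes are not particular to glioma cells here, with 3119, 736 and 63.0 CPM in mono-cultured macrophages at 0 h. Cspg4, Pdgfra and Sox2 had 17.8, 0.300 and 0 CPM there. All 6 fibroblast markers passed 1 CPM in some library, with a summed level of 12100 to 18520 CPM at 6 h and 12750 to 14943 CPM at 0 h. Of 9 oligodendrocyte markers 6 stayed under 1 CPM, and their sum was 24.2 to 27.4 CPM at 6 h and 24.3 to 30.4 CPM at 0 h. Single macrophage markers differed widely from their summed level. In the 0 h co-culture library 002, C1qa had 76.5 CPM, against 75.5 CPM in mono-cultured macrophages at 0 h. Ctss had 113 CPM there, against 4821 CPM in those macrophages. The summed percentage is therefore not a measured share of macrophage RNA. The part of macrophage RNA in the results was not tested beyond the values given below.

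After 6 h, 28 of 13603 genes tested had changed, which is 0.206%: 11 rose (0.0809%) and 17 fell (0.125%) in edgeR's quasi-likelihood test at a Benjamini-Hochberg adjusted p under 0.05 over all genes. All adjusted p-values below are of this test unless another is named. The genes that fell include the MAP kinase phosphatase Dusp8, the secreted matrix protein Ccn1, the peptide hormone gene Edn1, the activin subunit Inhba and the eIF2alpha phosphatase subunit Ppp1r15a. Those that rose include the bradykinin receptor Bdkrb2, the collagen-degrading protease Ctsk and the RNA-binding proteins Ewsr1 and Ddx3x. Of the 28 genes 20 were named by a rule on size, and Edn1, Srrm4, Mex3b, Dgkg, Dnajb4, Rusc2, Numa1 and Ddx3x after their values were seen. Log2 changes of the genes that fell ran from -1.83 to -0.37, with a median of -0.64, those of the genes that rose ran from 0.35 to 0.75, with a median of 0.52, and 5 genes passed 1 in either direction. The median over all genes tested was 0.00. At an unadjusted p under 0.05, 848 genes were higher (6.23%) and 907 lower (6.67%). All 28 genes are protein-coding, as are 90.6% of the genes tested. All 28 went the same way in the 3 library numbers, against 34.5% of all genes tested. In 19 of the 28 (14 that fell and 5 that rose) the 6 h and 0 h libraries did not overlap, against 12.2% of all genes. None of the 28 belongs to the 432 genes tested that were over 20 times higher in mono-cultured macrophages than in mono-cultured tumour cells, and 12 of the 28 were higher in macrophages by any amount.

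Promoter sequences of 4 of the genes that fell are shown because they hold the sequence bound by CREB and ATF proteins, or its shorter form, close to the start. Each is the 150 bases just upstream of the RefSeq start, from RefSeq on GRCm38.p6, on the gene's own strand (minus for each of them). Capitals mark TGACGTCA in Dusp8 and Ppp1r15a and CGTCA in Nfil3 and Ccn1.
Dusp8, chr7:142095285-142095434: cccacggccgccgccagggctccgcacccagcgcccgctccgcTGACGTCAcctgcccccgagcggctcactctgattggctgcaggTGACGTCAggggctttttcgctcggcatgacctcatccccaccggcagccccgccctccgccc
Ppp1r15a, chr7:45526269-45526418: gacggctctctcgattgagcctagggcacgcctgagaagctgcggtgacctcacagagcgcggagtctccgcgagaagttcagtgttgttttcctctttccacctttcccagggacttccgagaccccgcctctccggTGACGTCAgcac
Nfil3, chr13:52981040-52981189: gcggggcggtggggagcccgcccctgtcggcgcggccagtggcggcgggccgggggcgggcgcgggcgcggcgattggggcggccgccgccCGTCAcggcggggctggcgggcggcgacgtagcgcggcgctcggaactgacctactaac
Ccn1, chr3:145649986-145650135: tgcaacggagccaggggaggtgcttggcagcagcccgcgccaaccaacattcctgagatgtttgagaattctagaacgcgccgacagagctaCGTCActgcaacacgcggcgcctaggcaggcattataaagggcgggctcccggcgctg
Promoters from 250 bases before to 50 after the start were found for 15 of the 17 genes that fell, 11 of the 11 that rose and 10166 of the 13603 tested. TGACGTCA, the cyclic AMP response element, which reads the same on both strands, was in 2 of the 15 (13.3%), in none of the 11, and in 3.54% of all. The shorter TGACG or its reverse complement CGTCA, which also counts every longer site, was in 9 of the 15 (60.0%), 4 of the 11 (36.4%) and 35.4% of all. The AP-1 sequence TGANTCA was in none of the 15, 1 of the 11 and 6.43% of all. The CArG box bound by SRF was in none of the 15 or the 11 and in 1.51% of all. The TEAD sequence GGAATG or CATTCC, on either strand, was in 3 of the 15 (20.0%), 2 of the 11 (18.2%) and 14.3% of all, and the E-box CACGTG in 1 of the 15, none of the 11 and 11.6% of all. These motifs were chosen after the genes were known, and a match is a string of letters, not shown to be bound.

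**Figure D1:**
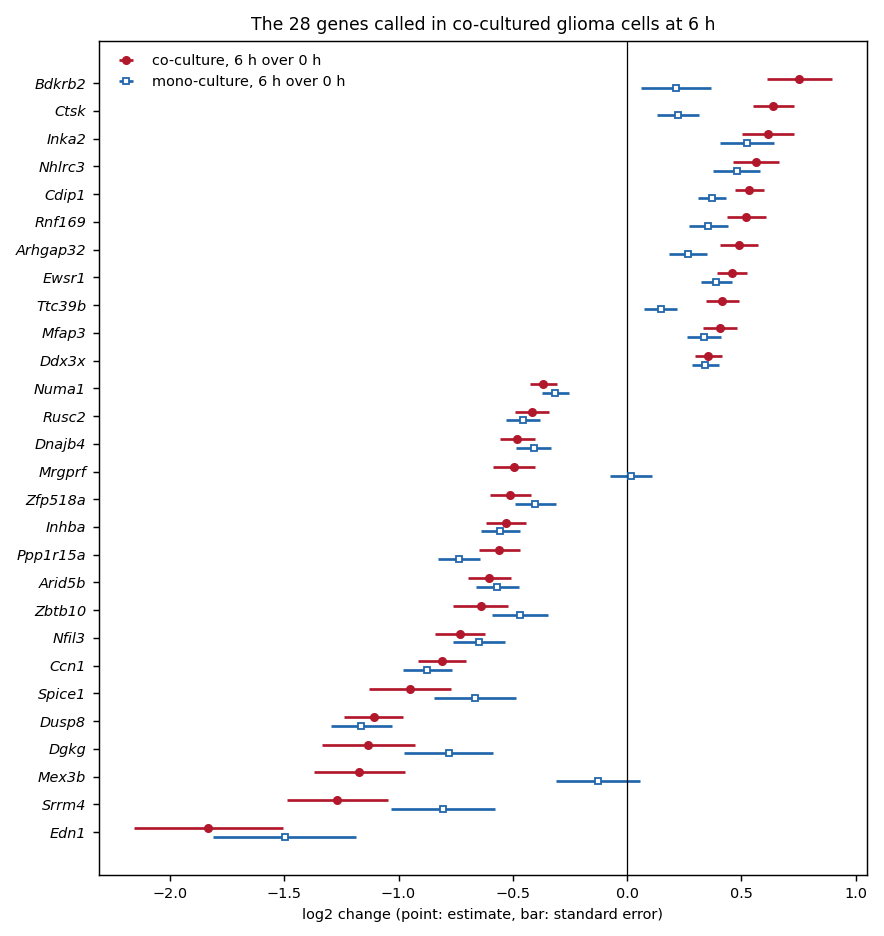
Log2 change at 6 h over 0 h of the 28 genes called in co-cultured glioma cells, with a row for each gene. Filled circles are co-culture and open squares mono-culture, each with its standard error. The co-culture values run from 0.75 for Bdkrb2 to -1.83 for Edn1, and the mono-culture square of Mrgprf lies at 0.02.

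Dusp8 (ENSMUSG00000037887, mm10 chromosome 7, 142079490 to 142095843), a phosphatase that inactivates the kinases JNK and p38, had 13.7, 11.1 and 10.7 CPM at 6 h, against 23.6, 25.6 and 27.9 CPM at 0 h. The groups lie well apart. Its log2 change was -1.11 ± 0.13 (SE, adjusted p = 0.00277), and its promoter is the one above with 2 copies of TGACGTCA. That stretch lies upstream of the RefSeq start, but within the gene coordinates given here, which reach 142095843 on this minus-strand gene. The 2 annotations thus place the start differently. Ppp1r15a (ENSMUSG00000040435, chromosome 7, 45522916 to 45526268), which brings protein phosphatase 1 to the initiation factor eIF2alpha, had 21.6, 37.7 and 39.4 CPM at 6 h, against 32.9, 52.1 and 59.8 CPM at 0 h. The groups overlap, with number 001 low at both times, and within each number 6 h was lower. Its change was -0.56 ± 0.09 (adjusted p = 0.0235).

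Ccn1, Inhba and Edn1, which encode secreted factors, are described together, a grouping made after the calls were seen. Ccn1 (ENSMUSG00000028195, chromosome 3, 145646976 to 145649981), a matrix-associated protein and a textbook target of YAP and TEAD, had 386, 501 and 543 CPM at 6 h, against 626, 937 and 954 CPM at 0 h. The groups do not overlap, and the change was -0.81 ± 0.11 (adjusted p = 0.00719). Inhba, the beta A subunit from which activin A is made, had 163, 166 and 157 CPM at 6 h, against 224, 248 and 231 CPM at 0 h, a change of -0.53 ± 0.09 (adjusted p = 0.0237). The spread among libraries of a group was small for this gene. Edn1, which encodes the endothelin-1 precursor, had 0.578, 1.43 and 1.17 CPM at 6 h, against 3.89, 3.94 and 3.37 CPM at 0 h. Its change of -1.83 ± 0.33 (adjusted p = 0.0346) rests on few counts.

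The genes Nfil3, Arid5b, Zbtb10 and Zfp518a fell as well. Nfil3, a basic leucine zipper repressor, had 21.0, 19.2 and 20.0 CPM at 6 h, against 39.5, 31.4 and 29.6 CPM at 0 h, a change of -0.73 ± 0.11 (adjusted p = 0.016). Arid5b, a DNA-binding co-regulator, had 103, 103 and 110 CPM at 6 h, against 173, 144 and 165 CPM at 0 h, a change of -0.60 ± 0.10 (adjusted p = 0.0235). Neither gene's groups overlap. The zinc-finger genes Zbtb10 and Zfp518a changed by -0.64 ± 0.12 and -0.51 ± 0.09, and Zbtb10 lies nearest the threshold of all 28 (adjusted p = 0.05 after rounding). Mrgprf, an orphan G protein-coupled receptor, changed by -0.49 ± 0.09; it had 14.9 to 19.8 CPM at 6 h, against 19.1 to 31.6 CPM at 0 h, which overlap.

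The genes that fell include 2 RNA regulators. Srrm4, a splicing factor best known in neurons for including microexons, had 3.73, 4.44 and 4.10 CPM at 6 h, against 8.64, 10.3 and 10.5 CPM at 0 h, a change of -1.27 ± 0.22. Mex3b, of a family of RNA-binding proteins, had 1.35, 1.00 and 0.920 CPM at 6 h, against 2.85, 2.29 and 2.25 CPM at 0 h, a change of -1.17 ± 0.20. The groups stand apart in both genes. Spice1 and Numa1, which both act at the mitotic spindle, changed by -0.95 ± 0.18 and -0.37 ± 0.06. Spice1 had 6.23 to 9.95 CPM at 6 h, against 13.6 to 16.0 CPM at 0 h, and Numa1 118 to 132 CPM at 6 h, against 148 to 176 CPM at 0 h, with groups apart in both. Dgkg, a diacylglycerol kinase, changed by -1.13 ± 0.20, the co-chaperone Dnajb4 by -0.48 ± 0.08 and the adaptor Rusc2 by -0.42 ± 0.08. Dgkg had 1.84 to 4.37 CPM at 6 h, against 3.47 to 10.4 CPM at 0 h, which overlap. The adjusted p-values of these 7 genes ran from 0.0235 to 0.046.

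Cdip1 (ENSMUSG00000004071, chromosome 16, 4750348 to 4790292), a p53-induced membrane protein linked to cell death, had the lowest p among the genes that rose. It had 62.9, 66.3 and 64.1 CPM at 6 h, against 42.9, 44.5 and 46.1 CPM at 0 h. The groups are far apart, and the change was 0.53 ± 0.06 (adjusted p = 0.00277). Cdip1 overlaps Hmox2 in the annotation, with 3588 counts for Hmox2 and 4309 for Cdip1 in the 6 libraries, so reads of the pair may have been divided between them and the value is uncertain. Ewsr1, an RNA-binding protein of the FET family, had 219, 253 and 263 CPM at 6 h, against 179, 171 and 183 CPM at 0 h, a change of 0.46 ± 0.07 (adjusted p = 0.0141). It overlaps Rhbdd3, which held 527 counts against 16607 for Ewsr1.

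Ddx3x, an RNA helicase that acts in translation, had 475, 516 and 523 CPM at 6 h, against 354, 427 and 404 CPM at 0 h, a change of 0.35 ± 0.06 (adjusted p = 0.0258). It has a close copy on the Y chromosome that may share reads. Ctsk, a cysteine protease that degrades collagen, had 27.4, 42.1 and 38.1 CPM at 6 h, against 16.9, 24.4 and 28.1 CPM at 0 h, a change of 0.64 ± 0.09 (adjusted p = 0.0126). Bdkrb2, the B2 receptor for bradykinin, had 20.4, 32.7 and 29.0 CPM at 6 h, against 9.33, 19.6 and 21.7 CPM at 0 h, a change of 0.75 ± 0.14 (adjusted p = 0.0492). In both genes the groups overlap across numbers, and 6 h was higher within each number. Ctsk is also expressed in macrophages, at 72.5 CPM in mono-culture at 0 h, whereas Bdkrb2 stood at 0.0225 CPM there. In number 001, whose libraries held least macrophage RNA, Ctsk had 27.4 CPM at 6 h against 16.9 CPM at 0 h.

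The other genes that rose were Inka2, an inhibitor of the kinase Pak4 (0.62 ± 0.11), Nhlrc3 (0.56 ± 0.10), Rnf169, which binds ubiquitin at DNA breaks (0.52 ± 0.09), the GTPase-activating protein Arhgap32 (0.49 ± 0.08), Ttc39b, which in mouse liver promotes LXR turnover (0.42 ± 0.07), and the microfibril-associated Mfap3 (0.41 ± 0.07). Their adjusted p-values ran from 0.0237 to 0.0376. Arhgap32 had 37.0 to 43.0 CPM at 6 h, against 27.6 to 30.6 CPM at 0 h, with groups apart. Inka2 had 20.9, 45.0 and 43.4 CPM at 6 h, against 13.7, 30.8 and 26.7 CPM at 0 h, higher at 6 h in each number. Ttc39b had 64.9 to 83.2 CPM at 6 h and 44.1 to 66.6 CPM at 0 h, which overlap.

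**Figure D2:**
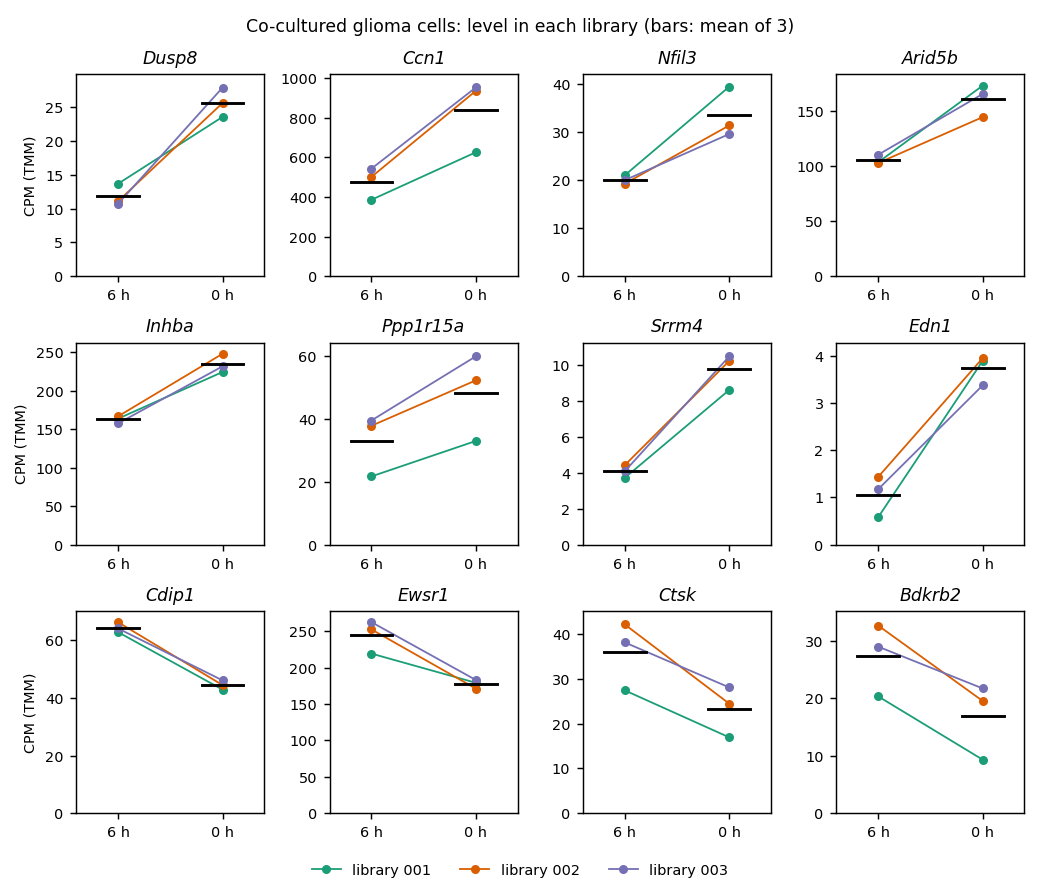
Level of 12 called genes in each co-culture library, in CPM after TMM scaling on linear axes from 0, with 6 h left of 0 h. Lines join libraries of the same number and bars are means of 3. Every line of the upper 8 genes is lower at 6 h (Dusp8 10.7 to 13.7 against 23.6 to 27.9) and every line of the lower 4 is higher.

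The count of 28 moved with the fit and with single libraries. Without the block 2 genes, Cdip1 and Dusp8, were called, and in a fit on the 6 compared libraries alone, with the block, 1 gene (Egr1) was. Leaving out the 6 h library 001, 002 or 003 left 18, 0 or 6 calls, and leaving out the 0 h library 001, 002 or 003 left 5, 2 or 13. Without all libraries of number 001, which stood apart, 458 of 13452 genes were called (3.4%; 198 higher, 1.47%, and 260 lower, 1.93%), the 28 among them, and without number 002 or 003 none was, with 961 and 1107 genes at an unadjusted p under 0.05. The omission that left 0 calls, of the 6 h library 002, left 1749 at that level. None of the 28 turned round in any of 18 alternatives, Dusp8 and Cdip1 stayed called in 13 of them and Ccn1 in 11. These alternatives refit the same libraries, and all 28 already went the same way in the 3 numbers. Their signs could therefore hardly turn. DESeq2 on the same 18 libraries called 158 (1.16%, 64 higher and 94 lower), again with all 28 included.

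Genes of sterol and lipid handling gave no calls. None of 20 cholesterol synthesis genes was called, and their median log2 change was -0.09, with 17 of 20 below 0, against 0.00 and 50.0% for all genes tested. Without number 001 their median was -0.03, also with no call. Hmgcs1, an early enzyme of the pathway, had 565, 509 and 455 CPM at 6 h and 601, 427 and 447 CPM at 0 h, and its change of 0.06 has a 95% interval from -0.12 to 0.25. Insig1, which retains the SREBP complex in the endoplasmic reticulum, had a change of 0.04 (-0.16 to 0.23). The libraries of both times overlap in both genes.

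Abca1, the cholesterol exporter and LXR target, had 75.1, 78.9 and 99.6 CPM at 6 h and 64.5, 62.7 and 76.2 CPM at 0 h, 0.31 ± 0.13 on the log2 scale (adjusted p = 0.349), higher at 6 h in each number. The 9 genes tested on the list of LXR targets and sterol export, which also holds the LXR genes Nr1h2 and Nr1h3, had a median of 0.09 and no call. Plin2, the coat protein of lipid droplets, had 159, 213 and 228 CPM at 6 h and 223, 244 and 266 CPM at 0 h, -0.30 ± 0.07 (adjusted p = 0.0925). It passed in DESeq2 (adjusted p = 0.00996) but not without number 001 (-0.21, adjusted p = 0.0786). Plin2 is also high in macrophages, at 667 CPM in mono-culture, and in number 001, with least macrophage RNA, it had 159 CPM at 6 h against 223 CPM at 0 h. Cd36, a fatty acid transporter, had 0.642, 5.65 and 8.61 CPM at 6 h and 0.518, 6.55 and 5.05 CPM at 0 h. It was lowest in number 001, with least macrophage RNA. Macrophages had 2618 CPM of Cd36, and the part of their RNA in these values was not tested. The 12 genes of fatty acid synthesis had a median of -0.18, and 4 of them were lower at an unadjusted p under 0.05, against 6.67% of all genes. DESeq2 called 1 of the 12 lower, the acyl-CoA synthetase Acsl3 (-0.47, adjusted p = 0.0272), which is 8.33% against 0.691% of all genes. Without number 001 the 12 had a median of -0.05 and no call, with Acsl3 at -0.33 (adjusted p = 0.06).

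**Figure D3:**
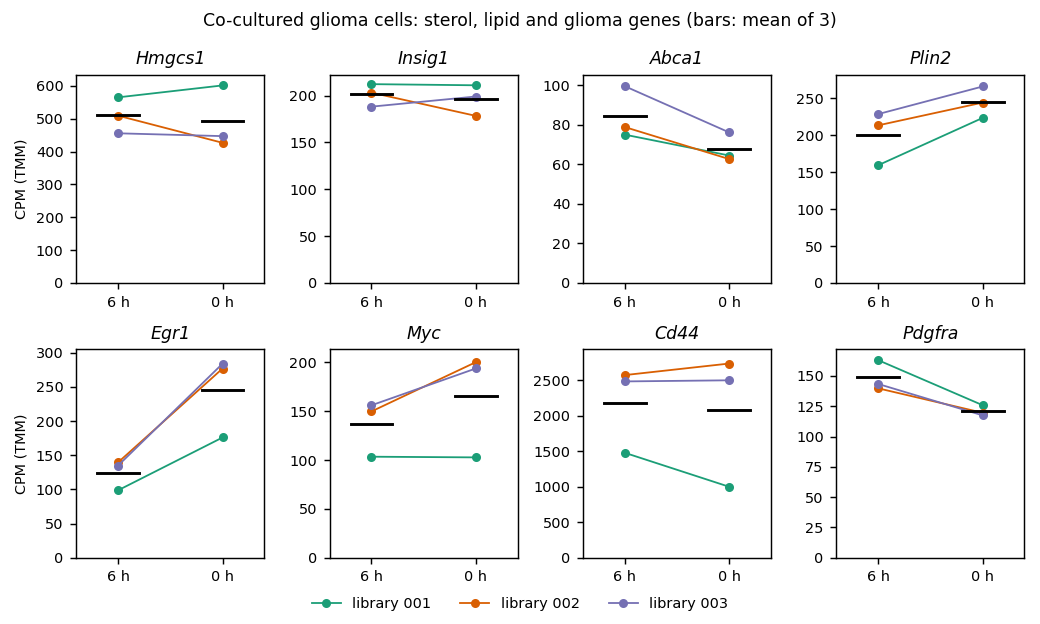
Level of 8 genes of sterol handling, lipid storage, immediate early response and glioma identity in each co-culture library, in CPM after TMM scaling, with 6 h left of 0 h and lines joining libraries of the same number. None was called, and Egr1 is lower at 6 h in each number.

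None of the 21 immediate early transcription factors was called. Their median log2 change was -0.37, 20 were below 0, against 50.0% of all genes, and 8 of the 21 were lower at an unadjusted p under 0.05, against 6.67% of all genes. Egr1, a zinc-finger factor induced by growth factors, had 98.7, 140 and 135 CPM at 6 h and 176, 277 and 284 CPM at 0 h, -0.95 ± 0.31 (adjusted p = 0.236). Atf3, a stress-induced factor, had 2.57, 9.66 and 7.44 CPM at 6 h and 14.2, 16.2 and 17.7 CPM at 0 h, -1.36 ± 0.37 (adjusted p = 0.167). In both genes the groups do not overlap. Fos ranged between 21.5 and 44.4 CPM in the 6 h libraries and between 35.1 and 52.6 CPM in the 0 h libraries, and its value of -0.42 ± 0.62 had a different sign without the 0 h library 001. Myc had -0.25 ± 0.11 (adjusted p = 0.366). DESeq2 called Atf3 and Klf6 lower (adjusted p = 0.0278 and 0.00197), 9.52% of the list against 0.691% of all genes. Without number 001, Atf3, Egr1, Egr3, Jun, Klf6 and Srf were called lower, 6 of 21 or 28.6%, against 1.93% of all genes in that fit. This fit, also used above and below, holds only numbers 002 and 003 and leaves out the number with least macrophage RNA. Without number 002 or without number 003 no gene was called. Other lists also held more calls there than all genes. Of 10 genes of the oncostatin M and STAT3 axis 3 were called higher (30%: Osmr, Socs3 and Stat3), against 1.47% of all genes. So were 3 of 15 NRF2 targets (20%) and 2 of 9 genes on the list of D cyclins and CDK inhibitors (22.2%). Those 2 were Cdkn2c and Mdm2, and Mdm2 is of neither kind. Called lower were 3 of 14 genes on the list of cytosolic heat shock chaperones (21.4%), Hspa8, Hsph1 and the transcription factor Hsf1. Also lower were 3 of 16 genes of Id, BMP and TGF-beta feedback (18.8%) and 4 of 22 genes of glycolysis and the hypoxia response (18.2%). The immediate early list is among 30 lists examined, and members named here beyond Egr1, Fos and Myc were chosen after their values were seen.

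Among 13 YAP and TEAD targets, with a median of -0.17, 1 was called lower, against 0.125% of all genes. It was Ccn1. Its relative Ccn2 had 803, 1011 and 935 CPM at 6 h and 912, 1666 and 1584 CPM at 0 h, -0.56 ± 0.16 (adjusted p = 0.178). Ccn2 was called lower without number 001 (-0.74) and in DESeq2 (adjusted p = 0.0492). Nuak2, a kinase of the AMPK family on the same list, was 29.9, 33.6 and 30.4 CPM at 6 h and 19.1, 22.4 and 21.4 CPM at 0 h, 0.59 ± 0.14 (adjusted p = 0.111), with groups apart, and was called higher without number 001 (0.55, adjusted p = 0.00719) and in DESeq2 (adjusted p = 0.0283). Without number 001, 3 of the 13 were called lower (23.1%, against 1.93% of all genes) and 1 higher (7.69%, against 1.47%). Of the 15 ERK feedback genes none was called, and without number 001 Dusp1, Dusp5 and Spry2 were called lower, 3 of 15 or 20%, against 1.93% of all genes. DESeq2 called 1 of the 15 lower, Dusp1 (adjusted p = 0.00363), which is 6.67% against 0.691% of all genes.

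The integrated stress response, the programme that phosphorylated eIF2alpha starts and Ppp1r15a ends, gave no call among 18 genes and a median of -0.06. Its target Trib3 had 25.9, 12.9 and 10.0 CPM at 6 h and 52.7, 23.1 and 25.0 CPM at 0 h, -1.04 ± 0.27 (adjusted p = 0.144). DESeq2 called Atf4, Chac1, Mthfd2 and Trib3 lower, 22.2% of the list against 0.691% of all genes. Without number 001 the calls went both ways, with Chac1, Mthfd2 and Trib3 lower (16.7%, against 1.93% of all genes) and Ddit4 (0.75) and Sesn2 (0.36) higher (11.1%, against 1.47%). Ptgs2, the inducible cyclooxygenase of the inflammatory list, had 240, 430 and 425 CPM at 6 h and 344, 810 and 786 CPM at 0 h, -0.79 ± 0.18 (adjusted p = 0.0925). It passed in DESeq2 (adjusted p = 0.00268). The 22 genes of that list had a median of 0.03.

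No gene of glioma signalling or identity was called. Pdgfra, the receptor for the driving growth factor, had 163, 140 and 143 CPM at 6 h and 126, 120 and 118 CPM at 0 h. The groups are apart, but 0.30 ± 0.09 did not pass (adjusted p = 0.181) unless number 001 was left out (0.25, adjusted p = 0.0253). Pdgfb had 5.20, 4.65 and 4.93 CPM at 6 h and 1.38, 8.20 and 6.18 CPM at 0 h, and its 0.16 ± 0.36 became -0.09 without the block. Cd44, a marker of the mesenchymal state, had 1477, 2570 and 2481 CPM at 6 h and 999, 2733 and 2497 CPM at 0 h, 0.14 ± 0.16. The 21 mesenchymal genes had a median of -0.02 and the 24 matrix genes 0.06. The proliferation marker Mki67 (0.10 ± 0.33) and the cyclin Ccnd1 (-0.10 ± 0.09) were not called. S phase genes had a median of -0.20, with 19 of 20 below 0, and genes of G2 and mitosis 0.18, with 19 of 20 above 0; neither list held a call. The 22 interferon-stimulated genes had a median of 0.12, and Ifit1 had 0.06 ± 0.28. The oxidative stress gene Hmox1 had 0.37 ± 0.23 and, without number 001, 0.32 with an adjusted p of 0.016. Il6 stayed between 0.358 and 1.67 CPM, and the myelin gene Mbp had -0.38 ± 0.40. Olig2 is not analysed here.

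**Figure D4:**
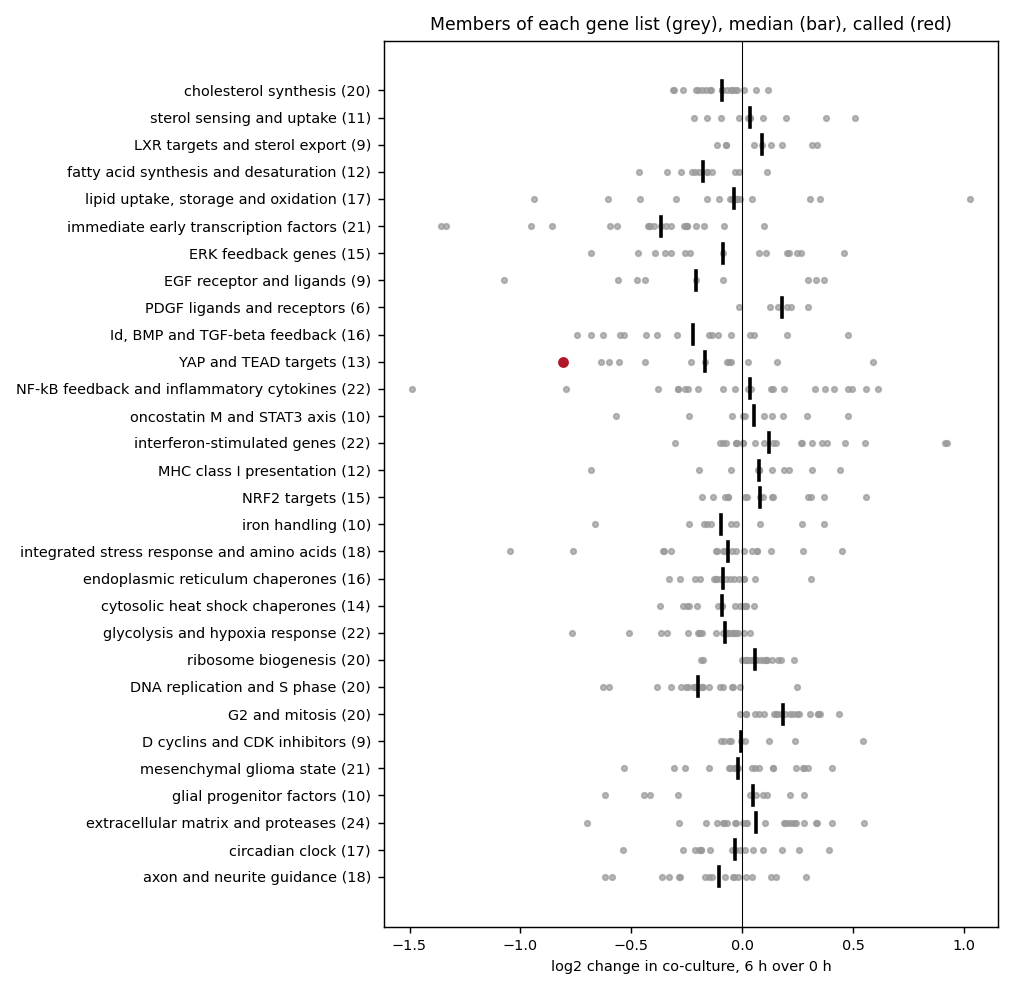
Log2 change at 6 h over 0 h in co-culture of the members of 30 gene lists, with the number of members tested in brackets. Grey points are genes, black bars list medians and the red point, Ccn1 in the YAP and TEAD list, is the member called. The immediate early list has its median at -0.37 and most other medians lie within 0.2 of 0.

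The comparison with mono-cultures sets the 6 h change beside that of libraries labelled as tumour cells alone, which held the macrophage RNA given above. The same contrast in mono-culture, on other libraries of the same numbers, called 35 genes (0.257%, 13 higher and 22 lower). At an unadjusted p under 0.05 there, 844 genes were higher (6.2%) and 740 lower (5.44%). Of the 21 immediate early factors 17 were lower at that level in mono-culture, with a median of -0.63, and of 9 genes on the LXR list 4 were higher. Of 20 macrophage markers 19 were higher at that level there too, with a median of 1.41. The part of macrophage RNA in the LXR values was not tested. Both comparisons called 12 genes in the same direction, which is 42.9% of the co-culture calls and 34.3% of the mono-culture calls. They are Dusp8, Ccn1, Nfil3, Arid5b, Ppp1r15a, Inhba, Dnajb4, Rusc2 and Numa1, which fell, and Cdip1, Ewsr1 and Ddx3x, which rose. Of the 17 genes that fell in co-culture 16 were below 0 in mono-culture, against 49.5% of all genes, with a median of -0.57, and all 11 that rose were above 0, with a median of 0.34. Dusp8 changed by -1.11 ± 0.13 in co-culture and -1.16 ± 0.13 in mono-culture, a difference of 0.05 with a 95% interval from -0.34 to 0.45. For Ccn1 the changes were -0.81 ± 0.11 and -0.87 ± 0.11, a difference of 0.06 (-0.25 to 0.38).

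In the test of the difference between cultures no gene was called (0.0%; lowest adjusted p 0.709), DESeq2 called none, and 482 genes (3.54%) had an unadjusted p under 0.05. Of the 28 genes 5 were among these 482. The 28 were chosen by their change in co-culture, which enters this difference, so the choice itself favours larger changes in co-culture. Mex3b had -1.17 ± 0.20 in co-culture and -0.13 ± 0.18 in mono-culture (difference -1.05, interval -1.62 to -0.47, adjusted p = 0.78). Mrgprf had -0.49 ± 0.09 and 0.02 ± 0.09 (difference -0.51, interval -0.79 to -0.23, adjusted p = 0.72). Ctsk had 0.64 ± 0.09 and 0.22 ± 0.09, Ttc39b 0.42 ± 0.07 and 0.15 ± 0.07, and Bdkrb2 0.75 ± 0.14 and 0.22 ± 0.15, each with co-culture given before mono-culture. These differences fail the adjustment over all genes. Egr1 had -0.95 ± 0.31 in co-culture and fell by 1.84 ± 0.32 in mono-culture, and Egr3 had -1.34 ± 0.48 in co-culture and fell by 2.65 ± 0.49 in mono-culture. The differences, 0.89 and 1.31, were not called. All 20 macrophage markers had a lower 6 h change in co-culture than in mono-culture, with a median difference of -1.65, all at an unadjusted p under 0.05 and none called. Their median change was -0.30 in co-culture, with 19 of 20 below 0, and 1.41 in mono-culture.

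The count in mono-culture and that of the difference also moved with single libraries. The mono-culture count was 114, 4 or 134 without the 6 h library 001, 002 or 003, and 43, 4 or 9 without the 0 h library 001, 002 or 003. Leaving out the mono-culture 6 h library 003 raised the count for the difference to 70.

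A later time shows how the co-cultured cells stood afterwards. Between 24 h and 6 h, 2601 genes were called (19.1%), of which 1253 were higher (9.21%) and 1348 lower (9.91%). This comparison shares the 6 h libraries with the one above, so the values are given side by side. The genes were chosen by their 6 h change, and the 6 h levels enter here with the opposite sign. The choice itself therefore favours a return by 24 h, and the calls below are no separate test of one. Of the 17 genes that fell by 6 h, 10 were called higher at 24 h than at 6 h and 7 were not called, and all 11 that rose were called lower. In the order 0, 6 and 24 h, Dusp8 averaged 25.7, 11.8 and 15.0 CPM, Ccn1 839, 477 and 449 CPM, Ppp1r15a 48.3, 32.9 and 27.4 CPM, and Inhba 234, 162 and 171 CPM. In these 4 genes the difference between 24 h and 6 h was not called (adjusted p 0.081 to 0.63). Edn1 averaged 3.73, 1.06 and 1.45 CPM and Srrm4 9.80, 4.09 and 4.90 CPM, also with no call after 6 h. Numa1 averaged 160, 124 and 167 CPM, Zfp518a 26.6, 18.6 and 26.4 CPM, and Mrgprf 23.7, 16.6 and 27.8 CPM, and their 24 h levels were called higher than at 6 h (0.43 ± 0.06, 0.50 ± 0.09 and 0.75 ± 0.09).

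Of the genes that rose, Cdip1 averaged 44.5, 64.4 and 47.4 CPM at 0, 6 and 24 h, Ewsr1 178, 245 and 182 CPM, and Ctsk 23.1, 35.9 and 23.1 CPM. Their 24 h levels were called lower than at 6 h (-0.44 ± 0.06, -0.43 ± 0.07 and -0.64 ± 0.09). Bdkrb2 averaged 16.9, 27.4 and 11.7 CPM (-1.28 ± 0.15 between 24 h and 6 h). Some followed genes with no call at 6 h were called between 24 h and 6 h. Insig1 averaged 196, 201 and 132 CPM, with -0.60 ± 0.09 between 24 h and 6 h. Cd44 averaged 2076, 2176 and 1042 CPM (-1.09 ± 0.16) and Ifit1 33.0, 33.0 and 156 CPM (2.11 ± 0.27).

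Of the genes named for 24 h by size 7 are given, and they had no call at 6 h. Aspn, a small proteoglycan of the matrix, had 413, 48.0 and 45.3 CPM at 24 h, against 47.8, 5.51 and 6.94 CPM at 6 h, a change of 3.01 ± 0.30. Fndc1 changed by 2.95 ± 0.47, the interferon-induced chemokine Cxcl10 by 2.77 ± 0.62 and the interferon-induced GTPase Iigp1 by 2.48 ± 0.38. The matrix protease Mmp10 had 0.0815, 0.400 and 0.955 CPM at 24 h, against 0.963, 15.2 and 14.8 CPM at 6 h, a change of -4.52 ± 0.50. Crct1 changed by -2.32 ± 0.22 and the semaphorin Sema7a by -2.26 ± 0.38. Their changes at 6 h over 0 h were -0.86 (Aspn), -1.10 (Fndc1), -0.03 (Cxcl10), 0.37 (Iigp1), 0.55 (Mmp10), 0.58 (Crct1) and 0.89 (Sema7a), with adjusted p-values from 0.247 to 0.993. The count of 2601 was 209 without the block, 1515 without the 24 h library 001 and 1483 without the 24 h library 003.

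**Figure D5:**
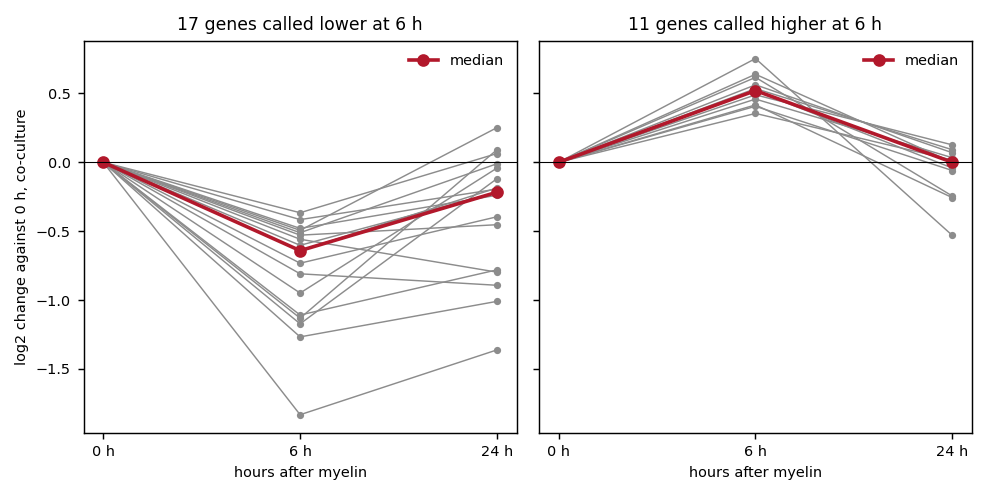
Log2 change against 0 h in co-culture at 0, 6 and 24 h of the 17 genes that fell at 6 h (left) and the 11 that rose (right). Grey lines are genes and the red line is the median, which stands at -0.64 at 6 h and -0.22 at 24 h on the left, and at 0.52 and 0.00 on the right; both times share the 0 h libraries, and 6 h chose the genes.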

How the data were processed

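Sorted cells were lysed, total RNA was column-purified and cDNA was primed with oligo-dT and amplified after template switching, per the labels' protocols. The authors deposited raw counts per gene for 29883 genes and 36 libraries. The build is mm10, per the submitters' processing notes, while an aligner, a counting tool and a strand setting were not given in the sources used here.

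Libraries were grouped by title. The 18 tumour cell libraries entered 1 fit in edgeR 4.0.16 (R 4.3.3, limma 3.58.1) with TMM scaling, filterByExpr on 6 groups, robust quasi-likelihood dispersions and the library number as a block, which left 13603 genes and a biological coefficient of variation of 0.114. The labels do not say that numbers pair libraries; the block follows from same-number correlations of deviations from the group means above the limit of 0.1 in each of the 3 numbers. The calling threshold was 0.05 after Benjamini-Hochberg adjustment. Each log2 change, taken without sign and divided by the root of its F statistic, gave its standard error, and intervals are 95%. Library levels are CPM on TMM-scaled library sizes, as are the levels behind the macrophage marker percentages. The other marker sums are CPM on total counts. On total counts the macrophage marker difference between 6 h and 0 h was -0.90 instead of -0.81. Named genes are the 10 with the largest change per direction among called genes with a mean of at least 10 CPM in either group and the same direction in all 3 numbers, called members of 30 gene lists (up to 4 each), 20 followed genes, and 4 per direction for the other comparisons; some of these are not reported here. Of the list genes 484 of 487 were found in the table. The members and lists were chosen with earlier results of these data known. Scripts were tested on simulated data. Alternatives include DESeq2 1.42.0, other library sets, no block, RLE size factors, no filter, and libraries left out. Counts of few reads limit precision, and amplified reads are not independent molecules.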

Additional observations from a re-analysis of the deposited data

How the results depend on the processing

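With no replicate block the 28 calls at 6 h in co-culture became 2 (Cdip1 and Dusp8), the 35 in mono-culture became 1, and the 2601 between 24 h and 6 h became 209. In fits on the compared libraries only, the counts with the block were 1, 21 and 1245 in the same order, and without it 0 each (644, 635 and 2442 at an unadjusted p under 0.05). The 1 call was Egr1, which is not among the 28. With the 9 co-culture libraries alone, chosen after seeing the data, 10 genes were called at 6 h, of which 5 were shared. DESeq2 called 158 in co-culture and 188 in mono-culture, and no filter on low counts gave 54 in mono-culture. Leaving out a library or a whole number moved the counts over 0 to 458 (co-culture), 0 to 856 (mono-culture), 251 to 3631 (24 h over 6 h) and 0 to 70 (difference between cultures). The counts in co-culture and mono-culture at 6 h were 30 and 35 with RLE size factors and 30 and 36 with non-robust dispersions, and leaving out macrophage genes gave 34 and 24. The macrophage marker difference of -0.81 ran from -2.93 to 0.924 with a library left out, so its sign is not settled. None of the 28 genes changed sign, but the alternatives refit the same libraries and the 28 had the same direction in each number. Among followed genes, Pdgfb was -0.0946 with no replicate block and -0.0899 in the compared libraries without it. With libraries left out Pdgfb ran from -0.587 to 0.760, Cd44 from -0.0504 to 0.273, Hmgcs1 from -0.0323 to 0.140, Insig1 from -0.0383 to 0.0972, Cd36 from -0.0616 to 0.644, Il6 from -0.676 to 0.114, Ifit1 from -0.243 to 0.280, Mki67 from -0.103 to 0.236 and Fos from -0.871 to 0.381. The cause of these moves was not tested. Edn1 and Mex3b rest on few counts.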
